A study of Homo sapiens with 18 samples.

Results

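The genes described here are 10 members of the BCL2 family, taken by symbol from a table of 17017 genes: the prosurvival genes BCL2, BCL2L1 (the protein BCL-XL) and MCL1, the effectors BAX and BAK1, and the BH3-only genes BMF, BBC3 (PUMA), BCL2L11 (BIM), BID and PMAIP1 (NOXA). The set was chosen by gene family, and BMF within it was selected on its measured ribosome footprints, which were higher in both knockdowns than in the control. Its changes against the control are therefore a description without a test. Each of the other 9 members is set against the adjusted p-value of a fit over all genes. All 10 members passed the filter on low counts in every fit. In footprints BMF, BBC3 and BCL2L11 passed it only through hairpin libraries, and their SC libraries alone were too low to pass. Their footprint rises against SC are to be read with that limit.

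The cells were MDA-MB-231, an established human line of triple-negative breast carcinoma. They received a lentiviral vector (pLKO.1) with a hairpin against fibrillarin mRNA or with a scramble sequence, and all of them, controls included, were kept in puromycin at 1 µg/ml for 96 h. On the day after that medium was replaced, cycloheximide at 100 µg/ml was added for 5 min, which holds ribosomes in place on the mRNA. The treatment labels are SC, read here as the scramble control, and SH2 and SH3, the hairpins; the labels do not say which of these is the protocols' KD1 and which is KD2. Cytoplasmic RNA and RNase I footprints of monosomes were sequenced from each lysate (libraries of 1 treatment with the same replicate number are read as 1 lysate), with 3 libraries of each kind per treatment and 18 in all. The labels do not state that replicates came from separate transductions, so p-values measure the spread between these samples, which may be technical.

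Proteins of the BCL2 family set the threshold for mitochondrial apoptosis. BAX and BAK1 open the outer mitochondrial membrane, the prosurvival members bind and restrain them, and BH3-only proteins, made or activated under stress, occupy the groove of the prosurvival proteins or engage the effectors directly. The balance between the 3 classes is controlled by transcription, translation and protein turnover, and MCL1 in particular is a short-lived protein. Fibrillarin (FBL), the targeted gene, is the methyltransferase that box C/D small nucleolar RNAs guide to ribosomal RNA.

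FBL RNA was 388 ± 36.4 CPM (read counts scaled to a common library size, SD, n = 3) in SC, 5.67 ± 5.09 in SH2 and 3.49 ± 0.612 in SH3, and SH2 replicate 3 was the highest hairpin library at 11.2 CPM. RNA libraries held 23469830 to 27629488 counts and footprint libraries 1662705 to 6098648, the lowest being SH3 replicate 1. Of the markers checked for this line, VIM, CD44, EGFR, CAV1, AXL and LGALS1 were abundant, while the luminal markers ESR1 and PGR had at most 2 counts in any library; GATA3 and EPCAM, also luminal, were present at a low level. The hairpins changed much of the transcriptome: 61.4% of tested genes passed an adjusted p-value of 0.05 in RNA for SH2 against SC and 53% for SH3 against SC, and 44.2% and 35.9% did so in footprints. A member that passed in RNA or footprints therefore did what 35.9% to 61.4% of tested genes did.

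Windows upstream of the RefSeq start are shown for BMF, BBC3 and BAK1, whose RNA was higher than SC in both hairpins, and for BCL2L11, whose footprints were. Each runs 5′ to 3′ over the 250 bases before the most upstream start listed (RefSeq, build GRCh38.p14). Capitals mark plain matches, on either strand, to GTAAACA (a FOXO core), CACGTG (an E-box), GGGCGG (a GC box) or TGACGTCA (a CRE), and no matches of different motifs overlap in these windows.
BMF, chr15:40108880-40109129, minus strand: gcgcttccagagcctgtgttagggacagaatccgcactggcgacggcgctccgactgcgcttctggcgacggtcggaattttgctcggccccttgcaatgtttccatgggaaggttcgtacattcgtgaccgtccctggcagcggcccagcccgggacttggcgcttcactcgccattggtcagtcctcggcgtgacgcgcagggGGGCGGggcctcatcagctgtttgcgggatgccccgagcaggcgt
BBC3, chr19:47232668-47232917, minus strand: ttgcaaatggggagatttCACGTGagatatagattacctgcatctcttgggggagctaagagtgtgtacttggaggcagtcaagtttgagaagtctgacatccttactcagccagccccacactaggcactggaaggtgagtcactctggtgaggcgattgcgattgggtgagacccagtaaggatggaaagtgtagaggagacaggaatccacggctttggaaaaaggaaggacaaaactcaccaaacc
BAK1, chr6:33580277-33580526, minus strand: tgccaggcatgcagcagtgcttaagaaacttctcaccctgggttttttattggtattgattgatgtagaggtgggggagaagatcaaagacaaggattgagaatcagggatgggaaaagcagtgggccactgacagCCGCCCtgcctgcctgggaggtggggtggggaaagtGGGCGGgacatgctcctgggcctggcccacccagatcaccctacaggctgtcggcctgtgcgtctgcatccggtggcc
BCL2L11, chr2:111120664-111120913, plus strand: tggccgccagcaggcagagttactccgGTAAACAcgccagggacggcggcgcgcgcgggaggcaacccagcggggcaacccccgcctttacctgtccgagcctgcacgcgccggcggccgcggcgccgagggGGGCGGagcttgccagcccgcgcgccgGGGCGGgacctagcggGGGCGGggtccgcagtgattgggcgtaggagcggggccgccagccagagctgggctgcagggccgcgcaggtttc
The BMF window held 1 GC box, the BBC3 window 1 E-box and the BAK1 window 2 GC boxes. The BCL2L11 window held 3 GC boxes and 1 FOXO core. Among 35116 such windows of all genes, 42.6% held a GC box, 6.34% an E-box, 2.98% the FOXO core and 1.65% the CRE. None of the 4 motifs searched thus occurred in all 3 windows of genes whose RNA was higher, while the BMF and BAK1 windows both held a GC box. Of the 10 members, 9 had an entry in the promoter table and MCL1 had none. A match describes letters only; binding was not measured.

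In RNA, 5 of the 10 members passed the test for SH2 against SC (4 higher, 1 lower), beside 61.4% of all genes (31.1% higher, 30.4% lower). For SH3 against SC 6 did (3 higher, 3 lower), beside 53% of all genes (27.8% higher, 25.2% lower). Without BMF the counts were 4 of 9 (3 higher, 1 lower) and 5 of 9 (2 higher, 3 lower). The members were thus called about as often as other genes. The libraries of hairpin and control did not overlap for 6 members in SH2 and 7 in SH3, BMF included. The shares of all genes without overlap were 64.3% and 62.9%. Between the hairpins 5 members were called (3 higher and 2 lower in SH2), beside 39.3% of all genes (18.9% higher, 20.4% lower). The median log2 change of the 10 members was 0.21 for SH2 and 0.06 for SH3, beside 0.01 and 0.03 over all tested genes. Of the 4 BH3-only genes other than BMF, 1 was higher in SH2 RNA (BBC3), and in SH3 RNA 1 was higher (BBC3) and 2 were lower (PMAIP1 and BID).

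**Figure D1:**
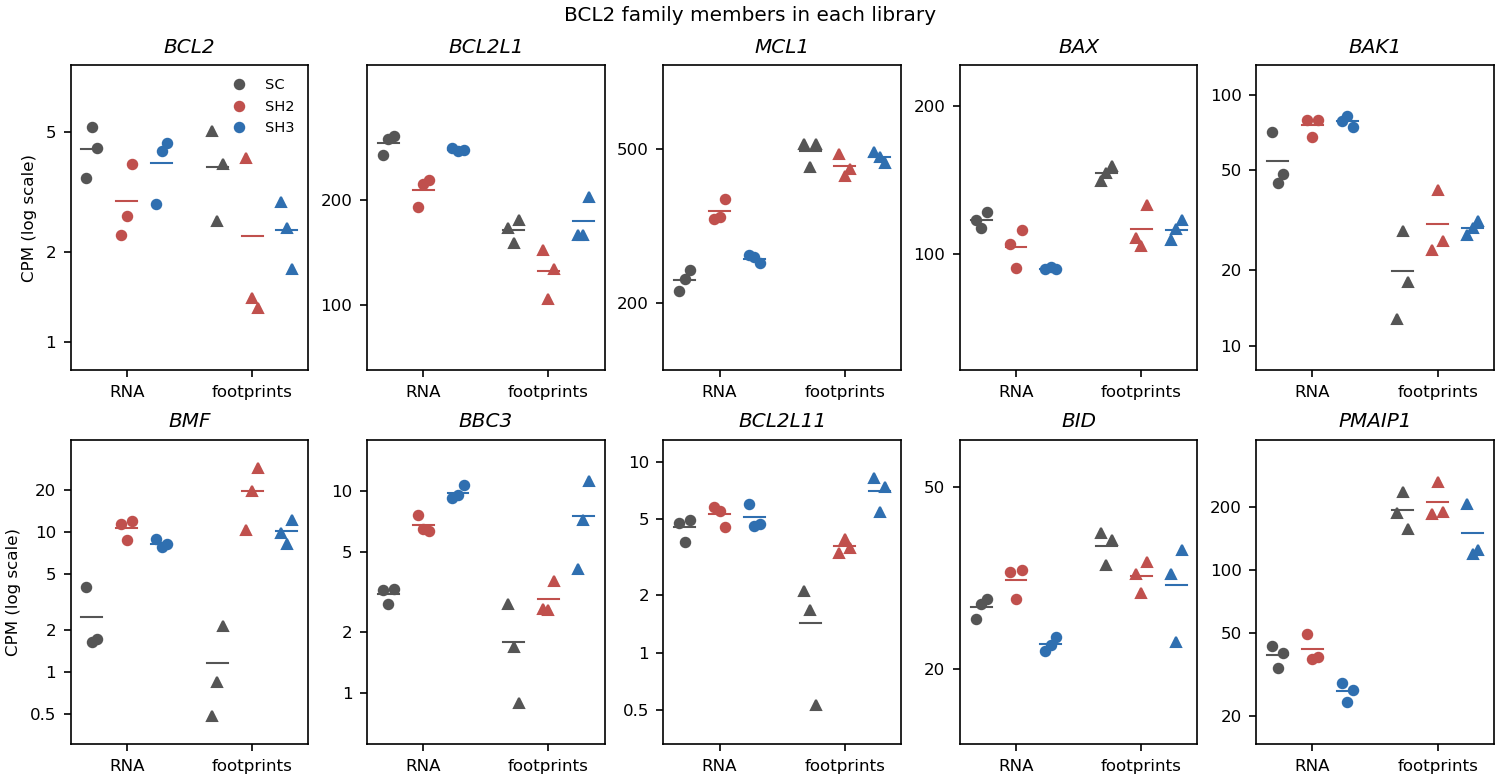
RNA (circles) and footprint (triangles) levels of the 10 members in each library, in CPM on a log axis whose range differs by gene, for SC (grey), SH2 (red) and SH3 (blue). Points are the 3 replicates and bars their mean. BMF, BBC3 and BAK1 have their lowest RNA values in SC, and BMF footprints run from 0.487 CPM in SC replicate 1 to 28.8 CPM in SH2 replicate 3.

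BMF, a BH3-only protein held on actomyosin motors through the dynein light chain DYNLL2, had the largest log2 changes of the members in RNA and in footprints, which is the property it was selected on. Its RNA was 4.08, 1.65 and 1.73 CPM in SC replicates 1 to 3. In SH2 it was 11.4, 8.84 and 12.1 CPM and in SH3 8.88, 7.80 and 8.24 CPM. All 6 hairpin libraries lay above all 3 controls, and SC replicate 1 was the highest control. The log2 change was 2.12 (SE 0.27) for SH2 and 1.74 (SE 0.27) for SH3.

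BMF footprints were 0.487, 0.843 and 2.13 CPM in SC, from 3, 2 and 12 counts. SH2 had 10.4, 19.8 and 28.8 CPM, from 28, 85 and 89 counts, and SH3 had 9.95, 8.22 and 12.3 CPM, from 17, 24 and 35 counts. The groups did not overlap, and the size of the change rests on the small control counts. The log2 change was 4.01 (SE 0.46) for SH2 and 3.05 (SE 0.51) for SH3. Between the hairpins, BMF RNA differed by 0.38 on the log2 scale (SE 0.24, edgeR quasi-likelihood adjusted p = 0.234) and footprints by 0.96 (SE 0.36, adjusted p = 0.0638), with SH2 the higher. The footprint difference passed 0.05 with no filter on low counts (adjusted p = 0.00763) and with only the 2 hairpin groups in the fit (0.0251). It also did without SH2 replicate 1 (1.25, 0.0176), with libraries thinned to 1 depth (1.2, 0.0272) and with the replicate number as a block. In the other 9 of 14 settings it did not, with adjusted p-values up to 0.291. BMF was selected on footprints of these same libraries, so these p-values are a description and lend no support to a difference.

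The ratio of BMF footprint CPM to RNA CPM in a lysate was 0.119, 0.511 and 1.23 in SC. It was 0.908, 2.24 and 2.38 in SH2 and 1.12, 1.05 and 1.49 in SH3. SC replicate 3 lay inside the range of both hairpins, so the groups overlapped. The log2 change of footprints relative to RNA was 1.91 (SE 0.62) in SH2 and 1.34 (SE 0.67) in SH3. These values rest on single control libraries: they were 0.85 and 0.28 without SC replicate 1, and 3.13 and 2.57 without SC replicate 3.

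BBC3, the BH3-only protein PUMA, rose in RNA in both hairpins. Its RNA was 3.22, 2.76 and 3.27 CPM in SC, 7.57, 6.47 and 6.29 CPM in SH2, and 9.16, 9.56 and 10.7 CPM in SH3. The 3 treatments did not overlap and ran in the order SC, SH2, SH3. The log2 change was 1.13 (SE 0.16, edgeR adjusted p = 2.86e-05) for SH2 and 1.67 (SE 0.16, adjusted p = 2.07e-06) for SH3. The difference between hairpins was -0.53 (SH2 minus SH3, adjusted p = 0.0101); without SH3 replicate 3 it was -0.45 with an adjusted p of 0.0649.

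BBC3 footprints rested on 4 to 17 counts in SC, 7 to 11 in SH2 and 7 to 32 in SH3. They were 2.76, 1.69 and 0.888 CPM in SC, 2.59, 2.56 and 3.56 CPM in SH2, and 4.10, 7.19 and 11.2 CPM in SH3. Only SH3 lay wholly above SC. The SH3 change passed the test at 2.08 (SE 0.44, edgeR adjusted p = 0.00168), and the SH2 value was 0.66 (SE 0.49, adjusted p = 0.293). The hairpins differed by -1.43 (SE 0.43, adjusted p = 0.0236), but this was lost without SH2 replicate 1 (-1.36, adjusted p = 0.0662), SH2 replicate 2 (-1.32, 0.0908), SH3 replicate 2 (-1.49, 0.0577) or SH3 replicate 3 (-1.03, 0.164).

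BCL2L11 encodes BIM, a BH3-only protein that binds all prosurvival members. Its RNA did not pass the test in either hairpin: 4.82, 3.83 and 5.00 CPM in SC, 5.84, 5.53 and 4.55 CPM in SH2, and 6.04, 4.61 and 4.75 CPM in SH3, all overlapping. The log2 differences from SC were 0.22 (adjusted p = 0.300; interval of 2 SE from -0.14 to 0.58) and 0.17 (adjusted p = 0.437; -0.19 to 0.54). Footprints were 2.11, 1.69 and 0.533 CPM in SC, from 13, 4 and 3 counts. They were 3.33, 3.96 and 3.56 CPM in SH2, from 9, 17 and 11 counts, and 8.20, 5.48 and 7.36 CPM in SH3, from 14, 16 and 21 counts. The 3 treatments did not overlap in footprints.

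BCL2L11 footprints rose in both hairpins. The log2 change was 1.35 (SE 0.44, adjusted p = 0.0215, edgeR) for SH2 against SC. It was 2.26 (SE 0.42, adjusted p = 0.000726) for SH3. The SH2 call was lost without SC replicate 3 (0.88, adjusted p = 0.118), without SH2 replicate 2 (1.28, 0.0755) and with footprint libraries thinned to 1 depth (1.06, 0.138), while the SH3 call held in every setting run. Between the hairpins the difference was -0.91 (adjusted p = 0.0942), and it passed 0.05 with only those 2 groups in the fit (adjusted p = 0.0426).

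Footprints relative to RNA, called translational efficiency below, changed in few genes: 3.9% of 12531 tested genes for SH2 against SC (1.44% higher, 2.46% lower), 0.686% for SH3 against SC (0.375% higher, 0.311% lower), and 0.016% between the hairpins. These are 489, 86 and 2 genes, and 191, 23 and 0 with the lysate as a replicate block. The footprint-to-RNA ratios of hairpin and control did not overlap for 4 members in SH2 and 2 in SH3, beside 19% and 18.2% of all genes. Of the 10 members 1 was called for SH2 (MCL1, lower), 1 for SH3 (BCL2L11, higher) and 0 between the hairpins by edgeR. Between the hairpins DESeq2 called 1 (MCL1). In edgeR 3 members (MCL1, BBC3 and BCL2L11) had an unadjusted p under 0.05 between the hairpins, beside 1471 of 12531 genes. The other members, BMF aside, had SH2 values between -0.49 and 0.28 on the log2 scale and SH3 values between -0.67 and 0.45, with adjusted p-values of 0.217 or more. For BCL2L11 the footprint-to-RNA ratio was 0.438, 0.440 and 0.107 in SC, 0.570, 0.716 and 0.782 in SH2, and 1.36, 1.19 and 1.55 in SH3. The ratios of the 3 treatments did not overlap, and SC replicate 3, with 3 counts, was the lowest. The log2 change in SH3 was 2.11 (SE 0.44, adjusted p = 0.0236) and that in SH2 was 1.13 (SE 0.46, adjusted p = 0.184).

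The SH3 efficiency call of BCL2L11 rests on little depth. It was lost without SC replicate 3 (1.55, adjusted p = 0.197) and without SH3 replicate 1 (2.15, 0.0712), replicate 2 (2.19, 0.122) or replicate 3 (1.99, 0.135). It was also lost with only SC and SH3 in the fit (2.11, 0.0653) and with libraries thinned to 1 depth (1.95, 0.0809). A replicate block by lysate, as read from the replicate numbers, lost it too (2.19, 0.0989). DESeq2 gave a log2 change of 2.12 and no adjusted p for it. The direction was the same in all of these.

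**Figure D2:**
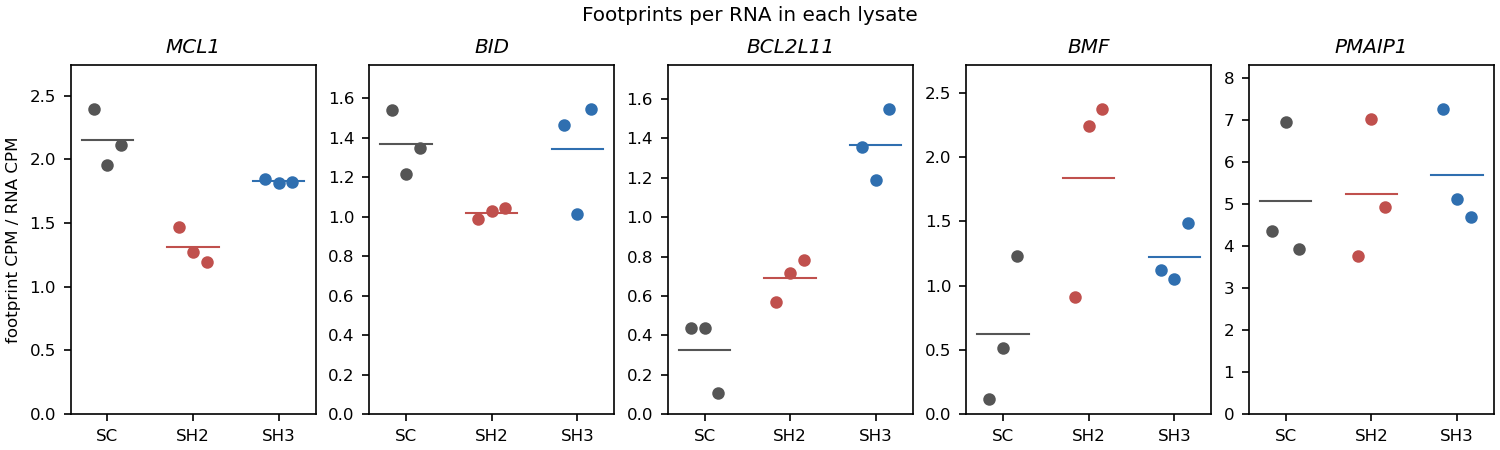
Footprint CPM divided by RNA CPM in each lysate for MCL1, BID, BCL2L11, BMF and PMAIP1, by treatment, on linear axes that start at 0. Points are the 3 replicates and bars their mean. MCL1 ratios fall from 1.95 to 2.40 in SC to 1.19 to 1.47 in SH2, and BCL2L11 ratios are highest in SH3.

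BID, which caspase-8 cleaves to carry death receptor signals to mitochondria, fell in SH3 RNA. Its RNA was 25.7, 27.7 and 28.4 CPM in SC, 32.5, 28.5 and 32.9 CPM in SH2, and 22.0, 22.6 and 23.6 CPM in SH3. SH2 lay above and SH3 below all controls. The SH3 change was -0.26 (SE 0.10, edgeR adjusted p = 0.0430) and was lost with no filter on low counts (adjusted p = 0.0862) and without SC replicate 2 (-0.25, 0.0961), SC replicate 3 (-0.23, 0.144), or SH3 replicate 1 (-0.28, 0.0760), replicate 2 (-0.29, 0.0641) or replicate 3 (-0.32, 0.0542). The SH2 value was 0.20 (adjusted p = 0.103; 0.0402 without SH2 replicate 2). The difference between hairpins, 0.46 (SE 0.10, adjusted p = 0.00282), held without any single library. BID footprints ran from 22.9 to 39.6 CPM over the 9 libraries, with log2 differences from SC of -0.23 (adjusted p = 0.318) and -0.30 (adjusted p = 0.227).

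PMAIP1 encodes NOXA, a BH3-only protein that binds MCL1 preferentially. Its RNA was 43.3, 34.0 and 40.3 CPM in SC, 49.7, 37.7 and 38.5 CPM in SH2, and 28.7, 23.5 and 26.7 CPM in SH3. It fell in SH3 by 0.57 on the log2 scale (SE 0.13, edgeR adjusted p = 0.00237), and the SH2 value was 0.10 (adjusted p = 0.536). The hairpins differed by 0.67 (SE 0.13, adjusted p = 0.00133), SH2 being the higher. Footprints were 189, 236 and 158 CPM in SC, 187, 264 and 189 CPM in SH2, and 208, 120 and 126 CPM in SH3. They overlapped in every comparison. The SH2 value was 0.14 (adjusted p = 0.603), and the SH3 value of -0.37 (adjusted p = 0.190) became a call of -0.64 without SH3 replicate 1 (adjusted p = 0.0232). PMAIP1 had the most footprints per RNA of the members: its SC ratio, 4.96, was at the 99.8th percentile of 10335 genes, whose median was 0.888. The ratio is not corrected for the part of each transcript that was counted.

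Among the prosurvival genes, MCL1 and BCL2L1 RNA moved in opposite directions in SH2. MCL1 RNA was 215, 231 and 244 CPM in SC, 331, 335 and 372 CPM in SH2, and 267, 263 and 254 CPM in SH3. All hairpin libraries lay above the controls. The change was 0.59 for SH2 (SE 0.09, edgeR adjusted p = 6.92e-05) and 0.18 for SH3 (SE 0.09, adjusted p = 0.102), and the difference between hairpins was 0.41 (SE 0.09, adjusted p = 0.00279).

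MCL1 footprints did not follow. They were 515, 451 and 516 CPM in SC, 486, 427 and 444 CPM in SH2, and 492, 477 and 462 CPM in SH3. The groups overlapped, at a log2 difference of -0.13 for SH2 (adjusted p = 0.408; interval of 2 SE from -0.37 to 0.11) and -0.05 for SH3 (adjusted p = 0.769; -0.30 to 0.19). The footprint-to-RNA ratio of MCL1 was 2.40, 1.95 and 2.11 in SC, 1.47, 1.27 and 1.19 in SH2, and 1.85, 1.81 and 1.82 in SH3. Every hairpin ratio lay below every control ratio, and SH2 below SH3. Translational efficiency fell by 0.73 on the log2 scale in SH2 (SE 0.14, edgeR adjusted p = 0.00573). Without SH2 replicate 3 it was -0.66 with an adjusted p of 0.0555. In SH3 the value was -0.22 (SE 0.14, adjusted p = 0.554), and between hairpins it was -0.51 (SE 0.14, adjusted p = 0.150 by edgeR and 0.00708 by DESeq2).

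BCL2L1 encodes BCL-XL, the long-lived prosurvival member. Its RNA was 270, 299 and 306 CPM in SC, 191, 223 and 229 CPM in SH2, and 282, 277 and 279 CPM in SH3. It fell in SH2 by 0.44 (SE 0.09, edgeR adjusted p = 0.00104), with no overlap, and the SH3 value was -0.06 (adjusted p = 0.596; interval of 2 SE from -0.25 to 0.13). The hairpins differed by -0.38 (SE 0.09, adjusted p = 0.00592).

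BCL2L1 footprints were 166, 151 and 176 CPM in SC, 144, 104 and 127 CPM in SH2, and 159, 159 and 204 CPM in SH3. The SH2 change was -0.40 (SE 0.15, edgeR adjusted p = 0.0421). It was lost without SC replicate 1 (-0.39, 0.0695), SC replicate 3 (-0.34, 0.148), SH2 replicate 2 (-0.27, 0.205) or SH2 replicate 3 (-0.40, 0.0932), with libraries thinned to 1 depth (-0.32, 0.129), and with only SC and SH2 in the fit (-0.39, 0.0637). The SH3 value was 0.08 (SE 0.15, adjusted p = 0.700). The difference between hairpins was -0.49 (SE 0.15, adjusted p = 0.0312), and it was lost without SH2 replicate 2 (-0.36, 0.149), SH2 replicate 3 (-0.49, 0.0770), SH3 replicate 2 (-0.55, 0.0536) or SH3 replicate 3 (-0.35, 0.164).

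The ratio of MCL1 to BCL2L1 counts within a library does not depend on how libraries are scaled. In RNA it was 0.797, 0.772 and 0.798 in SC, 1.73, 1.50 and 1.63 in SH2, and 0.945, 0.950 and 0.911 in SH3. The treatments did not overlap. In footprints it was 3.10, 2.99 and 2.93 in SC, 3.37, 4.09 and 3.51 in SH2, and 3.09, 2.99 and 2.26 in SH3, so that SH2 lay above SC and SH3 overlapped it. These pairs of genes were chosen after their values were seen, and no test was made of them.

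**Figure D3:**
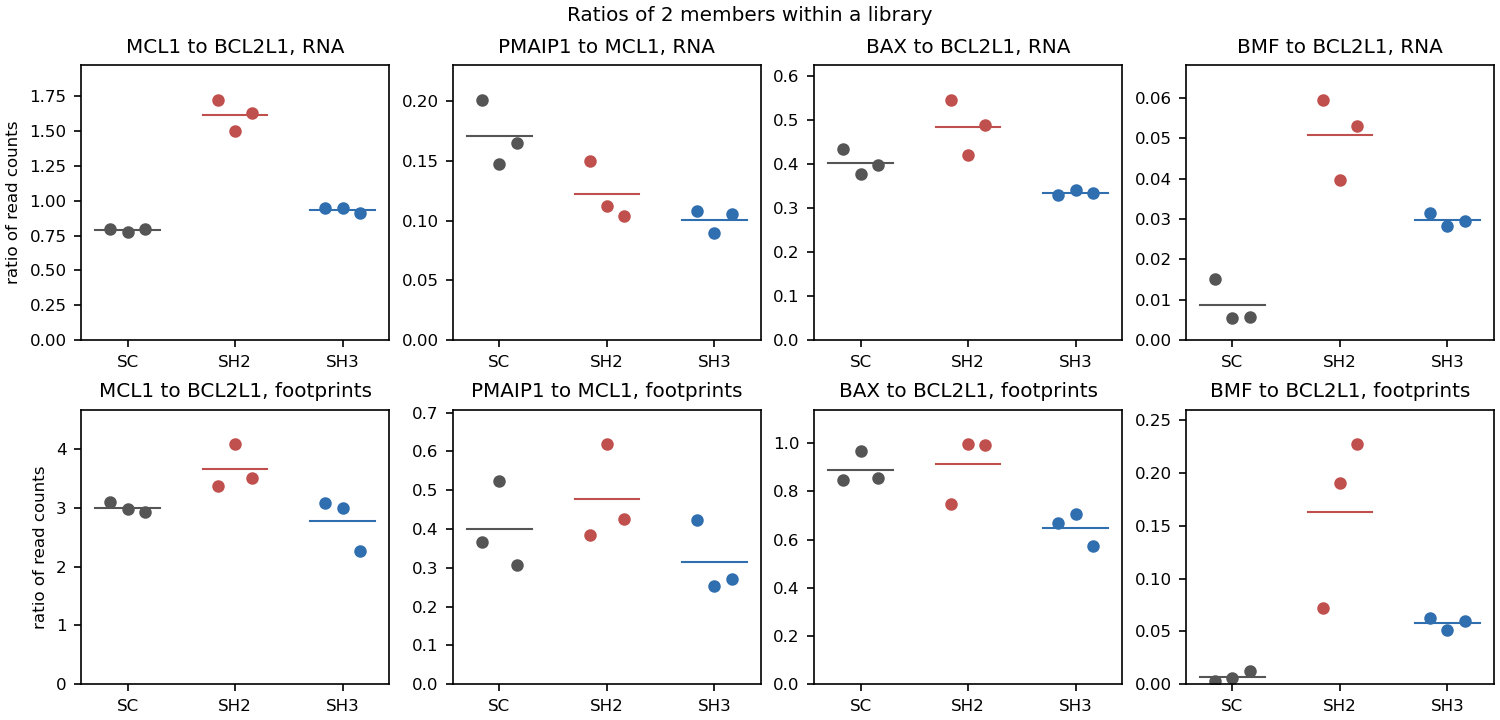
Ratios of the read counts of 2 members within each library, RNA above and footprints below, by treatment; points are the 3 replicates, bars their mean, and axes start at 0. The MCL1 to BCL2L1 ratio in RNA is 1.50 to 1.73 in SH2 and 0.772 to 0.798 in SC.

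BCL2 itself was at a low level, and its footprints rested on 4 to 31 counts in a library. Its RNA was 3.51, 5.19 and 4.41 CPM in SC, 2.28, 2.63 and 3.91 CPM in SH2, and 2.88, 4.32 and 4.60 CPM in SH3. The SH2 difference of -0.57 (SE 0.25) missed the threshold in edgeR (adjusted p = 0.0589) and passed it in DESeq2 (0.0486), with the replicate number as a block (-0.58, 0.0114), with no filter on low counts (0.0427), and without SC replicate 1 (-0.72, 0.0252) or SH2 replicate 3 (-0.85, 0.0139). The SH3 value was -0.15 (adjusted p = 0.621). BCL2 footprints were 5.03, 2.53 and 3.91 CPM in SC, 4.07, 1.40 and 1.29 CPM in SH2, and 2.93, 2.40 and 1.75 CPM in SH3. The log2 differences were -0.92 (SE 0.44, adjusted p = 0.0998; -1.54 and 0.0195 without SH2 replicate 1) and -0.81 (SE 0.46, adjusted p = 0.184), which this depth could not tell from 0.

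The effectors differed from each other. BAX RNA was 117, 113 and 122 CPM in SC, 105, 93.8 and 112 CPM in SH2, and 93.1, 94.1 and 93.0 CPM in SH3. It fell in SH3 by 0.33 on the log2 scale (SE 0.09, edgeR adjusted p = 0.00717), and the SH2 value was -0.18 (adjusted p = 0.0952; -0.26 and 0.0274 without SH2 replicate 3). BAX footprints were 141, 146 and 151 CPM in SC, 108, 104 and 126 CPM in SH2, and 107, 113 and 117 CPM in SH3. All 6 hairpin libraries lay below all 3 controls. The change was -0.38 in both SH2 (SE 0.13, adjusted p = 0.0265) and SH3 (SE 0.13, adjusted p = 0.0330).

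Both BAX footprint calls sat near the threshold. The SH2 call was lost without SC replicate 3 (-0.34, 0.0959), SH2 replicate 1 (-0.34, 0.0807) or SH2 replicate 2 (-0.31, 0.115), and with thinned libraries (-0.32, 0.0952). The SH3 call was lost without SC replicate 2 (-0.37, 0.0531), SC replicate 3 (-0.34, 0.117), SH3 replicate 1 (-0.33, 0.105), SH3 replicate 2 (-0.37, 0.0982) or SH3 replicate 3 (-0.40, 0.0701), and with thinned libraries (-0.28, 0.154). With no filter on low counts the adjusted p-values of BAX were 0.0527 and 0.0667. Over 14 settings, stricter thresholds included, the SH2 call was lost in 8 and the SH3 call in 9.

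BAK1 rose in RNA in both hairpins. It was 71.0, 44.6 and 48.2 CPM in SC, 79.2, 68.0 and 79.3 CPM in SH2, and 78.6, 81.9 and 74.3 CPM in SH3. SC replicate 1 was high among the controls and lay inside the SH2 range. The change was 0.47 for SH2 (SE 0.15, edgeR adjusted p = 0.0125) and 0.52 for SH3 (SE 0.15, adjusted p = 0.00825). The SH2 call was lost without SC replicate 2 (0.34, 0.0601), SC replicate 3 (0.38, 0.0629) or SH2 replicate 3 (0.41, 0.0608). RefSeq lists the pseudogenes BAK1P1 and BAK1P2, and how reads that match several places were counted is not given in the sources used here.

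BAK1 footprints were 12.8, 28.6 and 17.9 CPM in SC, 24.1, 41.7 and 26.2 CPM in SH2, and 27.5, 29.4 and 31.6 CPM in SH3. SC replicate 2 overlapped both hairpins. The SH2 change was 0.72 (SE 0.26, edgeR adjusted p = 0.0360), lost without SC replicate 1 (0.48, 0.135), SC replicate 3 (0.68, 0.102) or SH2 replicate 2 (0.43, 0.242), with thinned libraries (0.50, 0.212) and with only SC and SH2 in the fit (0.72, 0.0623). The SH3 value was 0.65 (SE 0.27, adjusted p = 0.0719). It became a call without SC replicate 2 (0.95, 0.00624), with no filter on low counts (0.0164) and with the replicate number as a block.

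In footprints, 5 of 10 members were called for SH2 against SC (3 higher, 2 lower), beside 44.2% of all genes (21% higher, 23.2% lower). For SH3 against SC 4 were called (3 higher, 1 lower), beside 35.9% of all genes (16.9% higher, 19% lower). Without BMF the counts were 4 of 9 (2 higher, 2 lower) and 3 of 9 (2 higher, 1 lower), again near the share of all genes. The libraries of hairpin and control did not overlap for 4 members in SH2 and 4 in SH3, BMF included. The shares of all genes without overlap were 51.3% and 46.5%. The SH2 count was 1 (BMF) without SC replicate 3 or SH2 replicate 2, and 3 without SC replicate 1. Of the 4 BH3-only genes other than BMF, 1 was called for SH2 (BCL2L11, higher) and 2 for SH3 (BBC3 and BCL2L11, higher). Both genes passed the filter on low counts only through hairpin libraries. Of the 3 prosurvival genes, 1 was lower in SH2 and 0 were called in SH3, where DESeq2 also called 0. Their SH3 adjusted p-values ran from 0.184 to 0.769 by edgeR. In that fit 0 of them had an unadjusted p under 0.05, beside 4723 of 10345 genes. The median footprint change of the 10 members was 0.01 for SH2 and 0.02 for SH3, beside 0.00 and -0.01 over all genes. Between the hairpins 0 members were higher and 2 lower in SH2, beside 23.8% of all genes (12.1% higher, 11.6% lower), and the count of 2 became 0 without SH2 replicate 2, SH3 replicate 2 or SH3 replicate 3 and 1 without SH2 replicate 3.

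**Figure D4:**
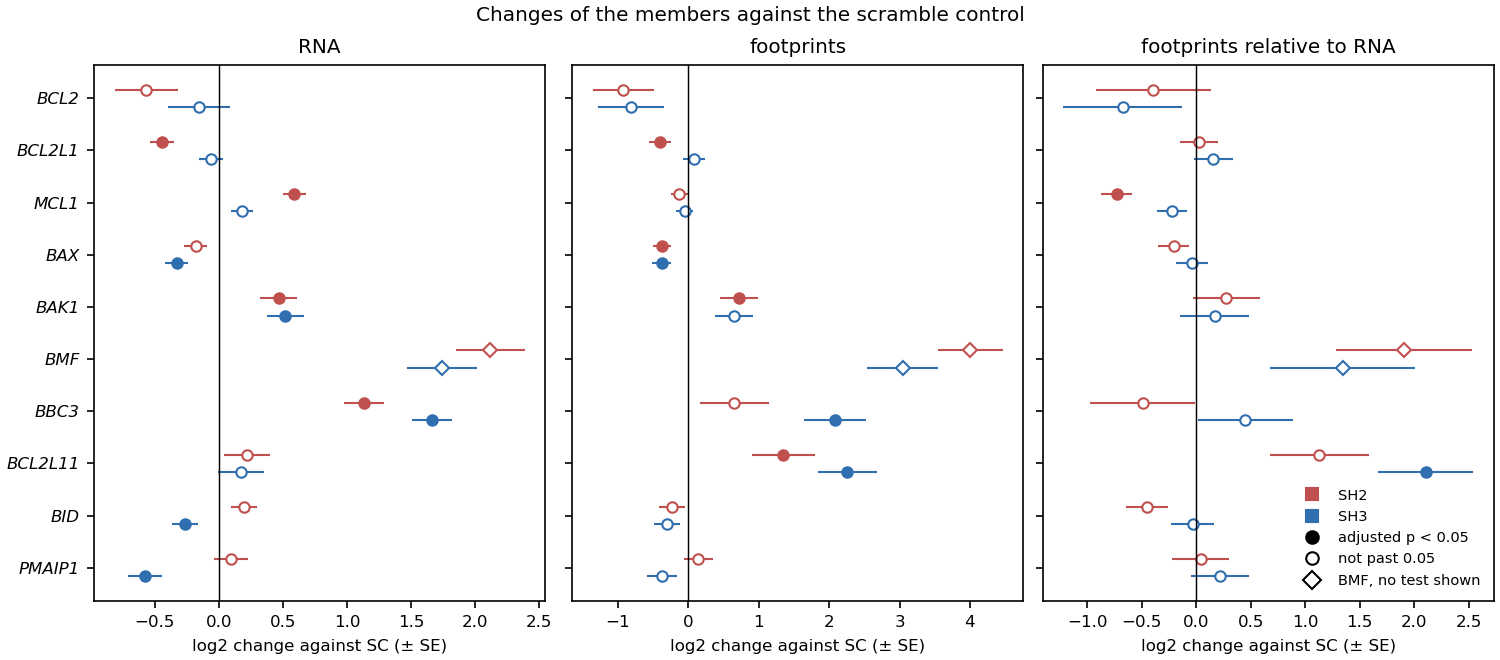
Log2 change against SC with its SE for the 10 members in RNA, footprints and footprints relative to RNA, for SH2 (red) and SH3 (blue); filled circles passed an adjusted p-value of 0.05, open circles did not, and diamonds are BMF, given with no test. The 3 panels have different ranges. MCL1 in SH2 lies at 0.59 in RNA and -0.13 in footprints, and BCL2L11 in SH3 lies at 0.17 in RNA and 2.26 in footprints.

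The authors' deposited table gave close values for the same comparisons: log2 changes in footprints of 4.05 and 3.10 for BMF in SH2 and SH3, and in RNA of 0.57 for MCL1 and -0.46 for BCL2L1 in SH2. It placed BCL2L1 footprints in SH2 at an adjusted p of 0.0535, on the other side of the threshold.

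In the control cells the members differed widely in footprints per RNA. The part of each transcript that was counted is not given in the sources used here. Ratios were not corrected for it, and ranks between genes carry that limit. MCL1 (2.15) followed PMAIP1 at the 94.1th percentile of genes, with BID (1.36) at the 76.3th and BAX (1.24) at the 70.9th. BCL2 (0.875) lay at the 49.1th, and BBC3 (0.576) and BCL2L1 (0.564) lay at the 27.5th and 26.6th. BMF (0.464), BAK1 (0.363) and BCL2L11 (0.317) lay at the 19.6th, 12.3th and 9.82th percentiles. The order of these low ratios is not resolved. Single SC lysates ran from 0.119 to 1.23 for BMF, whose mean over lysates was 0.620, from 0.487 to 1.43 for BCL2, from 0.272 to 0.856 for BBC3, from 0.504 to 0.616 for BCL2L1, from 0.181 to 0.642 for BAK1 and from 0.107 to 0.440 for BCL2L11.

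Apoptosis genes around the family were taken from 6 lists of 73 genes, of which 64 could be tested in footprints and 67 in RNA. In footprints 33 were called for SH2 (18 higher, 15 lower) and 31 for SH3 (17 higher, 14 lower), which is 51.6% and 48.4% of those tested, beside 44.2% and 35.9% of all genes. In RNA 45 were called for SH2 (25 higher, 20 lower) and 41 for SH3 (26 higher, 15 lower), which is 67.2% and 61.2%, beside 61.4% and 53% of all genes. Both hairpins share the SC libraries, and the counts of each list below are to be read against the same shares of all genes. In translational efficiency edgeR called 3 of 67 (4.48%) for SH2, 0 for SH3 and 0 between the hairpins. The shares of all genes were 3.9%, 0.686% and 0.016%, so the SH2 count was near its share. At an unadjusted p under 0.05 in edgeR there were 13, 7 and 9, beside 2248, 1574 and 1471 of all 12531 genes. DESeq2 called 4, 0 and 2. The 3 called by edgeR in SH2 were lower: BAD fell by 1.00 (adjusted p = 0.0107), BNIP3L by 0.64 (adjusted p = 0.0402) and SESN2 by 1.14 (adjusted p = 0.0228), of which BAD and SESN2 are named after their values were seen. With the lysate as a replicate block BNIP3L was not called (adjusted p = 0.0763). Between the hairpins edgeR called none of the 3 (adjusted p = 0.0991, 0.426 and 0.152 for BAD, BNIP3L and SESN2), while DESeq2 called BAD and SESN2.

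Of 13 other BCL2 family genes, 8 could be tested, and in footprints 3 were called for SH2 (1 higher, 2 lower) and 4 for SH3 (2 higher, 2 lower). BCL2L2, the prosurvival protein BCL-w, rose by 1.42 (SE 0.43, edgeR adjusted p = 0.0137) and 1.43 (SE 0.45, adjusted p = 0.0213), from 1 to 15 counts in SC libraries. BCL2L2 too passed the filter on low counts only through hairpin libraries. BNIP3L, a mitophagy receptor, fell by 0.54 (SE 0.15, adjusted p = 0.00862) and 1.02 (SE 0.16, adjusted p = 0.000150). The BCL2L2 calls were lost without SH2 replicate 2 (1.27, 0.0666) in SH2 and without SC replicate 3 (1.44, 0.0596), SH3 replicate 2 (1.38, 0.0743) or SH3 replicate 3 (1.17, 0.125) in SH3, and the SH2 call of BNIP3L without SH2 replicate 3 (-0.42, 0.0599).

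Downstream of the family, the list of apoptosome genes, caspases and mitochondrial factors had 8 of 14 called in footprints for SH2 (3 higher, 5 lower) and 7 of 14 for SH3 (2 higher, 5 lower). CYCS, the cytochrome c that leaves mitochondria once BAX or BAK1 have opened the membrane, fell by 1.16 in SH2 and 0.81 in SH3. APAF1, the scaffold of the apoptosome, fell by 0.79 and 1.08, and the channel gene VDAC1 fell by 0.97 and 1.12. CASP9, the caspase that the apoptosome activates, rose by 0.68 and 0.81. The largest adjusted p-value among these 8 changes was 0.00312 (CASP9, SH2).

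Of 5 inhibitor of apoptosis genes, 3 were called in footprints for each hairpin (SH2: 1 higher, 2 lower; SH3: 2 higher, 1 lower). BIRC3, the ubiquitin ligase cIAP2 and a known NF-κB target, rose by 1.80 and 1.85 (adjusted p = 0.00218 and 0.00311). BIRC3 had 5 to 29 counts in SC libraries and passed the filter on low counts only through hairpin libraries. Its rise is to be read with that limit. BIRC5, the mitotic protein survivin, fell by 1.45 and 1.53 (adjusted p = 5.20e-05 and 7.40e-05).

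In the death receptor pathway all 11 genes were called in SH2 RNA (7 higher, 4 lower) and 5 in SH3 RNA (4 higher, 1 lower; 3 without SH3 replicate 3), beside 61.4% and 53% of all genes; in footprints 8 (6 higher, 2 lower) and 4 (3 higher, 1 lower) were called. The TRAIL receptor TNFRSF10B fell in footprints by 0.90 and 1.34. RIPK1, a kinase of the receptor complex, rose by 0.81 and 0.83. CASP8, which cleaves BID, rose by 0.66 and 0.76, and its inhibitor CFLAR rose by 0.62 and 1.00. The largest adjusted p-value among these was 0.0266 (CFLAR, SH2), a call lost without SC replicate 2 (0.52, 0.0619), SC replicate 3 (0.58, 0.0859), SH2 replicate 1 (0.57, 0.0719) or SH2 replicate 2 (0.53, 0.105).

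Regulators and partners of the members had 3 of 11 called in footprints for SH2 (2 higher, 1 lower; 5 called without SC replicate 2, and 7 with the replicate number as a block) and 5 of 11 for SH3 (4 higher, 1 lower). DDIT3, the stress factor CHOP and an activator of BIM transcription, rose by 1.2 and 1.81, and E2F1 fell by 2.02 and 1.02. DDIT3 had 16 to 35 counts in SC libraries, which alone were too low to pass the filter on low counts. The rise of DDIT3 is to be read with that limit. USP9X, a deubiquitinase of MCL1, rose by 0.38 (adjusted p = 0.0453) and 0.64 (adjusted p = 0.00327). The SH2 call of USP9X was lost without SC replicate 1 (0.32, 0.106), SC replicate 3 (0.34, 0.134) or SH2 replicate 2 (0.26, 0.211). Over 14 settings, stricter thresholds included, that call was lost in 6. The SH3 call of E2F1 was lost without SC replicate 1 (-0.87, 0.0532). In RNA 7 of 13 genes of this list were called for SH2 (3 higher, 4 lower) and 9 of 13 for SH3 (7 higher, 2 lower). The shares of all genes were 61.4% and 53%. FOXO1 RNA rose by 1.78 and 1.72, FOXO3 RNA by 0.41 and 0.29, and TP73 RNA fell by 1.75 and 1.27. These 3 transcription factors are named after their values were seen, and a part of FOXO factors in the changes of the members was not tested.

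Genes of the DNA damage response and growth arrest had 8 of 15 called in footprints for each hairpin (SH2: 5 higher, 3 lower; SH3: 4 higher, 4 lower), beside 44.2% and 35.9% of all genes. The SH2 count was 5 without SC replicate 3, and the SH3 count was 5 without SH3 replicate 2 and with libraries thinned to 1 depth. CCNG1 fell by 2.30 and 1.38 and the DNA damage recognition gene DDB2 by 1.2 and 1.05. AEN, an apoptotic exonuclease, rose by 0.89 and 1.18, and ZMAT3 rose by 0.62 (adjusted p = 0.0428) and 0.64 (adjusted p = 0.0497). DESeq2 did not call ZMAT3 in either hairpin (adjusted p = 0.0885 and 0.0945), the replicate block lost its SH2 call (0.0507), and leaving out 1 library ended the SH3 call each time, with adjusted p-values from 0.0661 to 0.119, and the SH2 call for every library but SH2 replicate 1, with values from 0.0519 to 0.208. Named after its values were seen, CDKN1A, the cell cycle inhibitor p21, rose in SH2 RNA by 1.48 and fell in SH3 RNA by 0.64.

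**Figure D5:**
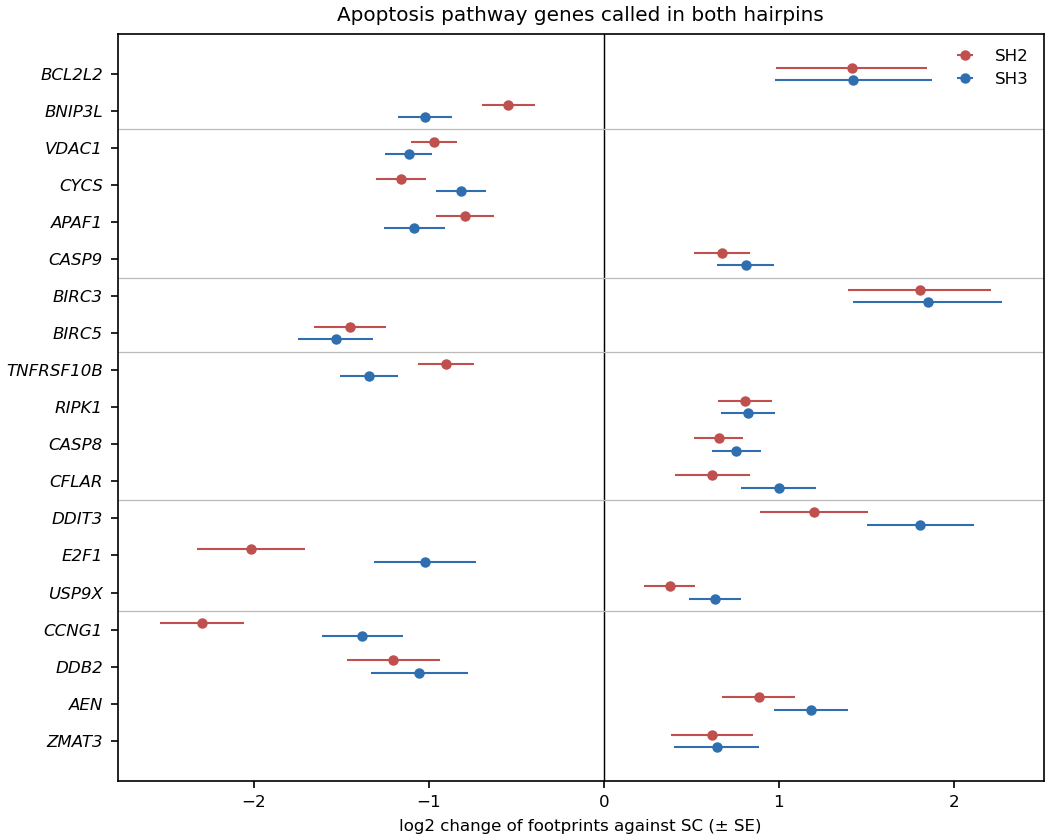
Log2 change of footprints against SC with its SE for 19 apoptosis pathway genes called in both hairpins, up to 4 from each list, for SH2 (red) and SH3 (blue); grey lines separate the lists. BIRC3, BCL2L2 and DDIT3 lie highest in both hairpins, and their SC libraries alone were too low to pass the filter on low counts. CCNG1, E2F1 and BIRC5 lie lowest in SH2, and BIRC5, CCNG1 and TNFRSF10B in SH3.

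The genes whose pattern was most like that of BMF were ranked by the lower of 2 Pearson correlations of log2 CPM, one over the 9 RNA libraries and one over the 9 footprint libraries, among 10334 genes. SGK1, a kinase that phosphorylates FOXO factors, had r = 0.976 in RNA and 0.964 in footprints, and near it were CRY2 (0.989 and 0.958), COLGALT1 (0.966 and 0.956) and GSN (0.956 and 0.955). These libraries share the treatment, so the values describe genes that also separate hairpins from control. Their footprint changes were smaller than that of BMF: SGK1 was 1.14 and 0.82 higher in SH2 and SH3, CRY2 1.58 and 1.40, COLGALT1 0.93 and 0.80, and GSN 1.92 and 1.37. No other family member ranked near them; BAK1 was closest, at rank 1307 with r = 0.930 in RNA and 0.677 in footprints.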

How the data were processed

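A single table of 17017 genes was used. Its read counts per gene and library are whole numbers deposited by the authors. Its normalized signal columns, DESeq2-scaled per the file headers, were not tested. Its log2 fold changes and p-values are the authors' own DESeq2 comparisons, per the file headers. The submitters' processing notes name Bowtie 1.2.2 and DESeq2. The annotation, build, strand and counting tool are not given in the sources used here, so overlapping or antisense genes such as BCL2L1-AS1 cannot be told apart from a member.

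Counts were tested in edgeR 4.0.16 (R 4.3.3): filterByExpr, TMM scaling, quasi-likelihood test, two-sided, with Benjamini-Hochberg adjustment over all genes tested and a threshold of 0.05. RNA and footprints each had a fit of 9 libraries, and translational efficiency a fit of all 18 with an interaction contrast. CPM is per TMM-scaled library, and SE is the log2 change over the square root of F. RNA had a biological coefficient of variation of 11.6% and footprints 15.1%. No replicates agreed within counting noise. Counts carry no molecular identifiers. Both hairpins share the SC libraries. Deviations of SC and SH2 samples with the same replicate number in the labels correlated in all 3 pairs (0.30 to 0.36 in RNA, 0.25 to 0.30 in footprints), so for SH2 against SC the blocked value is given where it changes a call. The procedure was tested on simulated data.

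Members and lists were chosen with earlier results of these data known. Named were all members, FBL, up to 4 genes per list called alike in both hairpins in footprints, and genes among the 5 most like BMF; 1 of those 5 and 1 gene of the lists are not reported here, and the list counts leave the latter out. Alternatives were DESeq2 1.42.0, plain library totals, no filter, other thresholds, only the groups compared, a replicate block, leaving out each library and, chosen after seeing the data, footprint libraries thinned to 1662705 counts.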

Additional observations from a re-analysis of the deposited data

Results flagged for a closer look

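For 5 members the RNA difference between the hairpins passed the test, so that the change against SC differed between SH2 and SH3. As SH2 minus SH3 on the log2 scale, the difference was -0.38 for BCL2L1, 0.41 for MCL1, -0.53 for BBC3, 0.67 for PMAIP1 and 0.46 for BID, with edgeR adjusted p-values of 0.00592, 0.00279, 0.0101, 0.00133 and 0.00282. In footprints the difference was -0.49 for BCL2L1 (adjusted p = 0.0312) and -1.43 for BBC3 (adjusted p = 0.0236). Over all genes 39.3% differed between the hairpins in RNA and 23.8% in footprints. FBL RNA was 5.67 CPM in SH2 and 3.49 CPM in SH3. The part of residual FBL in these differences was not tested.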

How the results depend on the processing

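Counts of called members moved by over 1.5 times in 7 of 14 settings for SH2 footprints, 8 of 14 for footprints between hairpins, 9 of 15 for SH3 efficiency and 4 of 15 for SH2 efficiency, and in 1 setting each for the other 5 comparisons; the cause of the changes below was not tested. With a minimum absolute log2 change of 1, the count was 2 for SH2 and 2 for SH3 in RNA against SC, 0 between hairpins in RNA, 2 for SH2 footprints, 1 between hairpins in footprints and 0 for SH2 translational efficiency. At an adjusted p under 0.01 it was 1 for SH2 footprints, 0 between hairpins in footprints and 0 for SH3 efficiency. With only the groups compared in the fit it was 2 for SH2 footprints, 5 between hairpins in footprints and 0 for SH3 efficiency. With no filter it was 4 between hairpins in footprints and 2 for SH2 efficiency. DESeq2 gave 2 for SH2, 0 for SH3 (where BCL2L11 had no adjusted p) and 1 between hairpins in efficiency. Thinned footprint libraries gave 1 for SH2 and 2 for SH3 footprints and 0 for SH3 efficiency. Leaving out 1 library gave 1 to 5 for SH2 footprints, 0 to 3 between hairpins in footprints, and 0 to 1 for efficiency in SH2 and in SH3. Counts against SC in RNA and footprints include BMF, whose changes are a description without a test. BMF was the 1 left in SH2 footprints at 0.01. With the minimum change, the 2 counted were BMF and BBC3 in RNA for each hairpin, and BMF and BCL2L11 in SH2 footprints.

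No member's called change reversed under any alternative. Values near 0 did when 1 library was left out: PMAIP1 in SH2 ran from -0.040 to 0.160 in RNA and from -0.035 to 0.302 in footprints, and BCL2L1 footprints in SH3 from -0.040 to 0.156. Of 38 further comparisons of single members or FBL, 0 of them called, 21 changed sign. Over all genes, efficiency calls moved most: 489 for SH2 (100 to 910), 86 for SH3 (10 to 349) and 2 between hairpins (0 to 219).

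For SC and SH2 the replicate numbers paired the samples, and a replicate block changed no SH2 call against SC, among the members and the 19 plotted pathway genes, other than those of BCL2 RNA and ZMAT3 footprints. For SH3 the pairing by number was uneven. Deviations of same-numbered SH3 and SC samples correlated at -0.08 to 0.23 in RNA and -0.06 to 0.26 in footprints. Those of SH3 and SH2 correlated at 0.04 to 0.43 and -0.12 to 0.31. In each case 2 of 3 pairs in RNA and 1 of 3 in footprints exceeded 0.1. RNA and footprints read as 1 lysate correlated at -0.49 to 0.50, over 0.1 in 5 of 9 cases. These values do not settle that reading, on which the ratios per lysate rest. With a replicate block by number, 6 members were called in RNA for each hairpin and 5 in footprints for each, with calls gained for BCL2 RNA in SH2 (adjusted p = 0.0114), BAK1 footprints in SH3 (0.0221) and BMF footprints between hairpins (0.0145). With the lysate as a replicate block, 1 member was called for SH2 efficiency and 0 for SH3, where BCL2L11 had 2.19 (adjusted p = 0.0989). Footprint depth limits BMF, BCL2, BBC3 and BCL2L11, each with libraries of 7 counts or fewer.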

Other observations

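The deposited table has a further set of columns named RD for each hairpin. For all 17017 genes the RD log2 fold change, p-value and adjusted p-value were identical between SH2 and SH3. Over the genes tested in edgeR, the RD log2 values differed from the edgeR change in translational efficiency by a median of 0.00474 for SH3 and 0.261 for SH2. The members' RD log2 values in the authors' deposited table were 2.12 for BCL2L11, 1.36 for BMF and -0.23 for MCL1, where the edgeR values were 2.11, 1.34 and -0.22 for SH3 and 1.13, 1.91 and -0.73 for SH2.

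PMAIP1 counts relative to MCL1 counts in the same RNA library were 0.201, 0.147 and 0.165 in SC, 0.150, 0.113 and 0.104 in SH2, and 0.108, 0.0896 and 0.105 in SH3. SH3 lay wholly below SC and SH2 overlapped it through SH2 replicate 1. In footprints the ratio was 0.367, 0.524 and 0.307 in SC, 0.384, 0.620 and 0.426 in SH2, and 0.423, 0.252 and 0.272 in SH3, and the treatments overlapped. BAX counts relative to BCL2L1 counts in footprints were 0.847, 0.966 and 0.858 in SC and 0.669, 0.708 and 0.573 in SH3, with no overlap, while SH2 ran from 0.748 to 0.998. These pairs were chosen after their values were seen.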
